A study of Homo sapiens with 6 samples.

Results

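The insulin-like growth factor (IGF) axis was examined in C4-2B prostate cancer cells by RNA-Seq as 10 genes: the receptors IGF1R and INSR, the ligands IGF1 and IGF2, the binding proteins IGFBP2, IGFBP3, IGFBP4, IGFBP5 and IGFBP6, and the adaptor IRS1. The genes were taken by symbol, and each symbol matched 1 row among the 58024 rows of the expression table. C4-2B is a castration resistant subline derived from LNCaP cells by passage through castrated mice. The comparison set 3 libraries of C4-2B enzalutamide resistant cells against 3 libraries of C4-2B parental cells, and it addressed which transcripts differ once cells grow in the presence of enzalutamide, an antiandrogen used against prostate cancer. The resistant cells had been passaged in 1 to 20 µM enzalutamide for 6 months or longer and were then kept in 5 µM, while the parental cells were passaged alongside in dimethyl sulfoxide (1% per the labels, while the study's methods state a smaller maximum). Both were grown in RPMI medium with 10% serum. RNA was taken after exposure to 10 µM enzalutamide, and whether the parental cells were exposed too is not clearly stated. The surviving cells were pooled into a single resistant population, and nothing states that the 3 libraries of a group came from separate selections or cultures, so that the p values measure the spread between these libraries only.

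In the IGF axis, IGF1 and IGF2 bind the IGF1 receptor, a tyrosine kinase that is closely related to the insulin receptor and can pair with it in hybrid receptors. The activated receptors phosphorylate the docking proteins IRS1 and IRS2, which recruit PI3 kinase and so activate AKT. Secreted binding proteins hold the ligands away from the receptor or carry them, and proteases release the ligands again. In prostate tissue, IGF1 is known mainly as a product of the stroma that acts on the epithelium.

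The promoter sequences of the genes with the clearest changes are shown first, since these genes moved in opposite directions. The 250 bases before a RefSeq start of each gene are given 5′ to 3′ on the strand of the gene, on GRCh38.p14, for IGF1R (chr15:98648289-98648538, plus strand), IGF1 (chr12:102481748-102481997, minus strand), IGFBP3 (chr7:45921273-45921522, minus strand) and IRS1 (chr2:226799821-226800070, minus strand). Capitals mark matches on either strand to 3 motifs. The GC box was searched as GGGCGG. The TATA box was searched as TATAAA. The forkhead site of the FOXO factors was searched as GTAAACA.
IGF1R: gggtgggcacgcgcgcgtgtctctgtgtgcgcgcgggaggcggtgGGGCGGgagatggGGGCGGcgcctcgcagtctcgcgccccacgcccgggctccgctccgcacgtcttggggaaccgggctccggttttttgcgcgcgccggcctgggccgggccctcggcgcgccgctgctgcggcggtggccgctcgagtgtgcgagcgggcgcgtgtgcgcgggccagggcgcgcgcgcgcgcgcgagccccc
IGF1: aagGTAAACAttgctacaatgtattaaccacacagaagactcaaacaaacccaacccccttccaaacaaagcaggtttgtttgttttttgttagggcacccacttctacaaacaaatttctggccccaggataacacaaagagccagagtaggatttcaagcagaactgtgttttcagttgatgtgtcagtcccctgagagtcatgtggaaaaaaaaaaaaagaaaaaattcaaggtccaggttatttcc
IGFBP3: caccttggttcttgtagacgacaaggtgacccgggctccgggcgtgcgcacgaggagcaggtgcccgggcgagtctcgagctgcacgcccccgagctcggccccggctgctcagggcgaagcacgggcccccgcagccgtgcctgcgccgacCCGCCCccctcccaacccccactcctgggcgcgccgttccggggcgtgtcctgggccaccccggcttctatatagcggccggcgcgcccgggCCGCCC
IRS1: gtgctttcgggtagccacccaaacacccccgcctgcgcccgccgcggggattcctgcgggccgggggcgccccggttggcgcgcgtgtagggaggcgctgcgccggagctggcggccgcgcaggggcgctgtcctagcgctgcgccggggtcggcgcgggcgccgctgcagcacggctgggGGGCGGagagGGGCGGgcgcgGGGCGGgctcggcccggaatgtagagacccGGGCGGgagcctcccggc
The IGF1R and IGFBP3 windows each held 2 GC boxes and the IRS1 window held 4, while the IGF1 window held none and had 1 forkhead site. A GC box was present in 42.6% of 35116 RefSeq promoter windows of this length, a TATA box in 10.7% and a forkhead site in 2.98%. The G and C content was 81.2% before IGF1R, 76.0% before IGFBP3, 80.8% before IRS1 and 39.6% before IGF1, against a median of 58.0% over all windows. For IGFBP3 the RefSeq start lies inside the gene as annotated by GENCODE, so that its window is within the gene. RefSeq lists another start for IGF1, whose window held no match. In all, 9 of the 10 genes matched the promoter table, and IGF2 did not. GC boxes were thus present before a gene that fell and before both genes that rose, and these matches describe letters in a window and not bound sites.

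Expression was taken as FPKM, by definition fragments scaled to transcript length and to the mapped total of the library. Levels in this unit are comparable between genes of different length. The values carry no named unit, and how the libraries were scaled against each other is not stated. The columns summed to between 793000 and 870000 FPKM. No read counts are in the table. The most frequent low value of genes with a single transcript, taken as 1 read with an assumed fragment of 200 bases, put the depth at roughly 13500000 to 20400000 reads per library, where a 2000-base gene gains 0.0272 to 0.0412 FPKM per read. The groups were compared with limma on log2(FPKM + 0.1) over 24468 genes whose mean reached 0.1 FPKM, and genes with a Benjamini-Hochberg adjusted p below 0.05 were called. The labelled cells were checked with KLK3, the gene of prostate specific antigen and an androgen-induced gene, which was at 2556 ± 274 FPKM (SD, n = 3) in parental and 44.0 ± 2.58 FPKM in resistant libraries. The summed level of 8 markers of prostate luminal cells lay between 4086 and 4845 FPKM in parental libraries and between 974 and 1040.1 FPKM in resistant libraries. A list of 5 neuroendocrine markers summed to between 6.80 and 10.6 FPKM and to between 189 and 211 FPKM, respectively, with CHGB, SYP, ENO2 and CHGA upregulated and INSM1 at or below 0.0558 FPKM in every library. CHGB and CHGA passed the filter through the resistant libraries alone. Leukocyte and endothelial markers summed to at most 0.658 and 1.14 FPKM in any library. In bulk libraries, fewer cells of a type and less RNA per cell cannot be told apart. Of 8 markers of stromal fibroblasts, which are a usual source of IGF1, 6 were tested. Of these, 3 were called upward and 1 downward, against 22.1% and 22.3% of all genes tested. DCN, listed at 0 in all parental libraries, and LUM passed the filter through the resistant libraries alone, so that their direction was fixed in advance. The sum of the 8 markers lay between 9.54 and 12.0 FPKM in parental and between 10.9 and 17.9 FPKM in resistant libraries. Whether any of these shifts bears on the IGF axis was not tested.

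In enzalutamide resistant C4-2B cells, IGF1R and IGF1 were downregulated, while IGFBP3, IGFBP2 and IRS1 were upregulated, and IGFBP6 was listed at 0 in parental libraries and detected in resistant ones. Of the 10 genes, 9 passed the filter on low values, 6 of these were called, and 44.4% of all genes tested were called. A call together with at least a 2-fold change on the log2 scale was found in 28.5% of all genes. Upward calls were 4 of the 9, against 22.1% of all genes, and downward calls were 2, against 22.3%. In 8 of the 9 genes the groups did not overlap, with 5 higher and 3 lower in resistant libraries, and this was so for 54.8% of all genes tested. IGFBP6 passed the filter through the resistant libraries alone and IGF2 through the parental libraries alone. Of the 7 genes whose mean reached 0.1 FPKM in each group, 3 were called upward and 2 downward. The median log2 fold change of the 9 genes was 0.35, against −0.05 over all genes tested. With so many genes changed in this comparison, the counts say little about these genes as a group, and the results are given gene by gene.

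IGF1R on chromosome 15 (GRCh38, 98648539 to 98964530), the receptor through which both IGFs act, reached 108, 72.7 and 108 FPKM in parental cells but only 17.1, 8.74 and 11.3 FPKM in resistant cells. The groups did not overlap, and the highest resistant library stood far below the lowest parental library. The mean fell from 96.3 ± 20.4 to 12.4 ± 4.31 FPKM (SD, n = 3 each), which is 7.78-fold lower, with a log2 fold change of −2.98 (limma, standard error of 0.28, adjusted p = 3.26e-04). Among all genes tested, 5.30% were expressed above IGF1R in parental cells and 32.3% in resistant cells, and 9.47% had a larger change in either direction. Parental replicate 1 was the lowest of its group, and without it the log2 fold change was −3.17.

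INSR on chromosome 19 (7112255 to 7294414), the insulin receptor, did not share this decrease. It had 13.1, 15.1 and 12.6 FPKM in parental libraries and 17.4, 15.5 and 19.3 FPKM in resistant libraries. The groups lay next to each other without overlap, and the log2 fold change of 0.35 (95% interval from 0.05 to 0.65) was not past the threshold (limma, adjusted p = 0.0625). This call depended on the scaling, since INSR passed as upregulated after median-of-ratios scaling (adjusted p = 0.0292), after quantile normalization (0.0470) and with short genes left out of the scaling (0.0437). It also passed without parental replicate 1 (0.0442) and without resistant replicate 1 (0.0483), each with a log2 fold change of 0.43.

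The balance of both receptors therefore shifted. The ratio of IGF1R to INSR in FPKM was 8.24, 4.82 and 8.56 in parental libraries and 0.986, 0.563 and 0.584 in resistant libraries. IGF1R was the more abundant transcript in every parental library, and INSR was in every resistant library, by a narrow margin in resistant replicate 0. Summed, the receptors went from 109.9 ± 19.1 to 29.8 ± 5.16 FPKM. The table gives 1 value per gene, so that the INSR isoforms with and without the alternative exon, which differ in their affinity for IGF2, were not resolved.

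**Figure D1:**
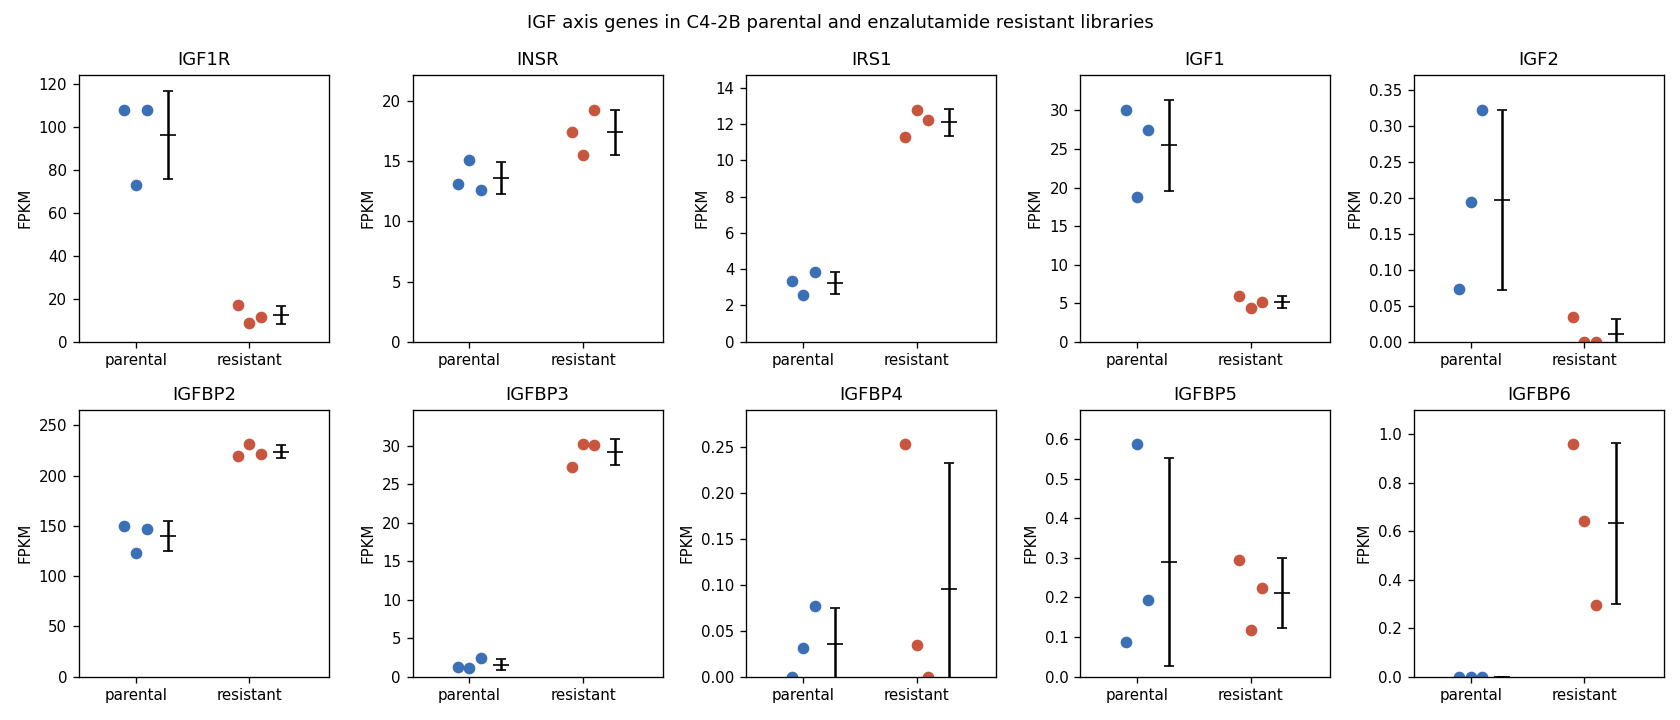
FPKM of the 10 IGF axis genes in C4-2B cells, with a point for each of 3 parental (blue) and 3 enzalutamide resistant (red) libraries and the mean with SD beside them, cut off at 0. The axes start at 0 and differ between genes. IGF1R fell from about 96.3 to 12.4 FPKM and IGFBP3 rose from 1.53 to 29.2 FPKM, while IGF2, IGFBP4, IGFBP5 and IGFBP6 stayed below 1 FPKM in every library.

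The ligand IGF1 on chromosome 12 (102395874 to 102481744) was expressed by the parental cells themselves, at 30.1, 18.8 and 27.5 FPKM, and was at 5.94, 4.39 and 5.21 FPKM in the resistant cells. Every resistant library was below every parental library. The mean fell from 25.5 ± 5.91 to 5.18 ± 0.776 FPKM (SD, n = 3 each), 4.92-fold lower, with a log2 fold change of −2.26 (limma, standard error of 0.21, adjusted p = 3.41e-04). As with the receptor, parental replicate 1 was the lowest of its group. Of the 8 stromal markers, DCN rose from a listed 0 to 3.92 ± 0.378 FPKM, LUM from 0.0604 ± 0.0523 to 0.969 ± 0.313 FPKM and ACTA2 from 1.31 ± 0.174 to 2.68 ± 0.234 FPKM (SD, n = 3 each). DCN and LUM passed the filter on low values through the resistant libraries alone. PDGFRB fell from 2.10 ± 1.25 to 0.164 ± 0.114 FPKM, COL1A1 and COL3A1 were not called, and COL1A2 and PDGFRA were at or below 0.132 FPKM in every library. The part of these genes in the IGF1 result was not tested.

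IGF2 on chromosome 11 (2129112 to 2158391), the fetal growth factor of an imprinted locus, was close to the limit of detection, with 0.0729, 0.195 and 0.323 FPKM in parental libraries and 0.0343, 0 and 0 FPKM in resistant libraries. Its log2 fold change was −1.34 (95% interval from −2.60 to −0.07) and was not past the threshold (limma, adjusted p = 0.0831). The value followed the pseudocount, with −0.24 at 1 FPKM and −3.44 at 0.01 FPKM, and the call was gained without parental replicate 0 (log2 fold change −1.68, adjusted p = 0.0233). IGF2 shares exons with the readthrough gene INS-IGF2, which was listed at 0 in all libraries together with INS and IGF2-AS, and reads could be split between IGF2 and INS-IGF2. Of the ligands, IGF1 was thus the transcript that these cells expressed at an appreciable level.

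Among the binding proteins with a fold, IGFBP3 showed the largest change. IGFBP3 on chromosome 7 (45912245 to 45921874), the main carrier of IGFs in the blood, was at 1.19, 1.05 and 2.36 FPKM in parental libraries and at 27.3, 30.2 and 30.1 FPKM in resistant libraries. It was low in every parental library and close to 30.1 FPKM in every resistant library. The mean rose from 1.53 ± 0.722 to 29.2 ± 1.64 FPKM (SD, n = 3 each), with a log2 fold change of 4.25 (limma, standard error of 0.30, adjusted p = 1.06e-04). A larger change in either direction was found in 3.94% of the genes tested.

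IGFBP2 on chromosome 2 (216632828 to 216664436), a carrier that also binds integrins, was the most abundant of the 10 genes in both groups. It had 149.8, 123 and 147 FPKM in parental libraries and 219, 231 and 221 FPKM in resistant libraries. The groups were apart, and the increase was modest, from 140.0 ± 14.7 to 224 ± 6.16 FPKM (SD, n = 3 each), which is 1.60-fold, with a log2 fold change of 0.68 (limma, standard error 0.09, adjusted p = 0.00139).

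IGFBP6 on chromosome 12 (53097436 to 53102345), which prefers IGF2 over IGF1, was listed at 0 in all parental libraries and had 0.959, 0.642 and 0.297 FPKM in resistant libraries. The fit called it as upregulated (limma, adjusted p = 0.00518), but a gene that passes the filter only through the group where it is high has to differ, so the call supports nothing beyond the values, and no fold is given against 0. On its 1346 exonic bases 1 read is worth from 0.0427 to 0.0646 FPKM, which puts at most about 18.7 reads behind a value, and no other gene shares its locus in the table to show whether the parental 0 is a measured absence. IGFBP5 on chromosome 2 (216672105 to 216695549), a binding protein that attaches to the extracellular matrix, had 0.0885, 0.587 and 0.194 FPKM in parental and 0.294, 0.117 and 0.224 FPKM in resistant libraries. The groups overlapped, and the log2 fold change of −0.15 had a 95% interval from −1.60 to 1.30 (limma, adjusted p = 0.860). IGFBP4 on chromosome 17 (40443450 to 40457725), the classic substrate of the protease PAPPA, had 0, 0.0311 and 0.0764 FPKM in parental and 0.253, 0.0340 and 0 FPKM in resistant libraries and was not tested. IGFBP4 and IGFBP5 were low in both groups, and for IGFBP5 the parental SD of 0.262 FPKM was close to the mean of 0.290 FPKM.

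The total of IGFBP1 to IGFBP7 rose from 142 ± 14.9 FPKM in parental to 254 ± 7.05 FPKM in resistant libraries (SD, n = 3 each). IGFBP2 made up 99.1%, 98.7% and 98.2% of this total in parental libraries and 88.3%, 88.1% and 87.7% in resistant libraries. The share of IGFBP3 went from 0.784%, 0.843% and 1.58% to 11.0%, 11.5% and 11.9%. Binding protein transcripts exceeded those of the ligand IGF1 by 5.02, 6.63 and 5.44 times in parental libraries and by 41.8, 59.6 and 48.3 times in resistant libraries. These ratios are given as descriptions with no test, since they combine genes chosen with their values known.

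**Figure D2:**
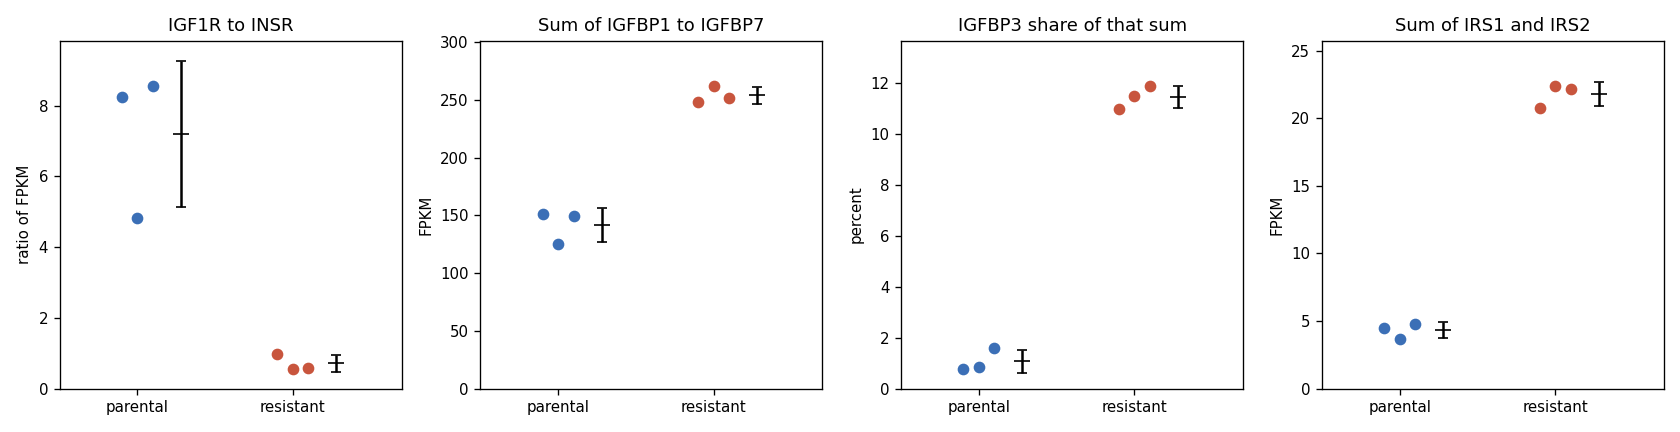
From left to right, the ratio of IGF1R to INSR in FPKM, the sum of IGFBP1 to IGFBP7 in FPKM, the percent of that sum taken by IGFBP3, and the sum of IRS1 and IRS2 in FPKM, for 3 parental (blue) and 3 resistant (red) libraries with mean and SD beside them. The receptor ratio dropped from a mean of 7.21 to 0.711 and the IRS sum rose from 4.31 to 21.8 FPKM.

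Downstream of the receptors, IRS1 on chromosome 2 (226731312 to 226799820), the docking protein that links IGF1R and INSR to PI3 kinase, was upregulated in the same cells. It had 3.33, 2.60 and 3.82 FPKM in parental libraries and 11.3, 12.8 and 12.2 FPKM in resistant libraries. No resistant library came near the parental range. The mean rose 3.73-fold, from 3.25 ± 0.615 to 12.1 ± 0.709 FPKM (SD, n = 3 each), with a log2 fold change of 1.88 (limma, standard error of 0.17, adjusted p = 3.25e-04). Its paralog IRS2 on chromosome 13 moved the same way, from 1.17, 1.05 and 0.964 FPKM to 9.41, 9.63 and 9.94 FPKM, a log2 fold change of 3.08 (limma, standard error 0.16, adjusted p = 4.12e-05). The ratio of IRS1 to IRS2 went from 3.09 ± 0.772 to 1.25 ± 0.0624 (SD, n = 3 each).

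The order of the levels in parental cells was IGFBP2, IGF1R, IGF1, INSR, IRS1 and IGFBP3, followed by IGFBP5, IGF2, IGFBP4 and IGFBP6, where the last 4 lay within 0 to 0.587 FPKM and neighbours in this order were not separated by their spread. In resistant cells the order was IGFBP2, IGFBP3, INSR, IGF1R, IRS1 and IGF1, and INSR, IGF1R and IRS1 were close, with the IGF1R values spanning those of IRS1 and reaching those of INSR. The profile most like that of IGFBP3, the gene with the smallest adjusted p, was sought over the 6 libraries as the smallest largest difference between log2 values centred on each gene's mean. The closest genes were BAIAP2L2, RP1-27O5.3 and STPG3, with largest differences of 0.22, 0.23 and 0.27 on the log2 scale. RP1-27O5.3 and STPG3 had parental means of 0.0371 and 0.0303 FPKM. Both passed the filter through the resistant libraries alone, so that their direction was fixed in advance and their parental log2 values lay near the pseudocount.

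A wider list of 61 genes of the same pathway, ordered by role, was set beside the 10 genes. Of these, 55 were tested, 6 were upregulated and 16 were downregulated, so that 22 of 55 were called, against 44.4% of all genes tested (22.1% up and 22.3% down). The share called was thus near that of all genes, and the median log2 fold change was −0.19, against −0.05 over all genes tested. The split depended on the scaling, with 10 up and 14 down after median-of-ratios scaling, 10 and 15 with short genes left out of the scaling, and 8 and 14 after quantile normalization. Of the 22 calls, 15 were kept at the same threshold under every alternative that tested the gene, and STC1 and SOCS3 were not tested with the filter of 1 FPKM. Of the 6 upward calls, IGF2BP1 and SOCS3 passed the filter of 0.1 FPKM through the resistant libraries alone, so that their direction was fixed in advance.

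IGF2R, the mannose 6-phosphate receptor that clears IGF2 and does not signal as a kinase, was the other receptor called. It had 52.8, 57.9 and 49.1 FPKM in parental and 33.4, 29.4 and 35.0 FPKM in resistant libraries, with a log2 fold change of −0.71 (limma, standard error 0.10, adjusted p = 0.00200). Its decrease was smaller than that of IGF1R, so that the ratio of IGF2R to IGF1R went from 0.580 ± 0.188 to 2.81 ± 0.758 (SD, n = 3 each). INSRR, the orphan member of the receptor family, did not exceed 0.0571 FPKM in any library. The remaining binding proteins were near the limit of detection: IGFBP1 did not exceed 0.222 FPKM, IGFBP7 0.256 FPKM, IGFBPL1 0.379 FPKM and IGFALS, the acid labile subunit of the circulating complex, 0.457 FPKM. None of these was called, although IGFALS was gained without resistant replicate 1 (limma, adjusted p = 0.0450). IGFALS passed the filter through the resistant libraries alone.

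Of 5 genes that govern the cleavage of binding proteins, 4 were tested and 2 were downregulated, where 22.3% of all genes tested were downregulated. These 2 were the inhibitors of the cleavage. STC2, a stanniocalcin that blocks the proteases PAPPA and PAPPA2, had 51.5, 43.8 and 51.2 FPKM in parental and 9.26, 10.2 and 8.82 FPKM in resistant libraries. All resistant values were far below the parental ones, with a log2 fold change of −2.36 (limma, standard error 0.11, adjusted p = 2.42e-05). STC1, which inhibits the same proteases, went from 1.55 ± 0.322 to 0.277 ± 0.144 FPKM (SD, n = 3 each), with −2.18 on the log2 scale (limma, adjusted p = 0.00574). PAPPA itself was near 0, with means of 0.00157 and 0.00185 FPKM. PAPPA2 had 0.0201, 0.706 and 0.0343 FPKM in parental and 0.399, 0.847 and 0.536 FPKM in resistant libraries, which was not past the threshold (adjusted p = 0.180) and was gained as upregulated without parental replicate 1 (limma, log2 fold change 2.40, adjusted p = 0.0103). The serine protease HTRA1 was at 2.58 ± 0.404 and 1.88 ± 0.280 FPKM and was not called (adjusted p = 0.163).

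Of the proteins that bind IGF2 mRNA, IGF2BP1 passed the filter through the resistant libraries alone, so that its direction was fixed in advance. It was called as upregulated, from 0.0814 ± 0.106 to 0.615 ± 0.156 FPKM (SD, n = 3 each, limma, adjusted p = 0.0196). This call was lost with the replicate number as a block (0.0602) and without parental replicate 0 (0.0584), resistant replicate 0 (0.0544) or resistant replicate 2 (0.0572). IGF2BP2 had 0.743, 6.12 and 0.649 FPKM in parental and 6.52, 5.38 and 25.6 FPKM in resistant libraries and was not called (adjusted p = 0.0700), but it was past the threshold without parental replicate 1 (limma, log2 fold change 3.62, adjusted p = 0.0204) and with short genes left out of the scaling (0.0458). IGF2BP3, the most abundant of the family, was at 18.7 ± 4.37 and 25.9 ± 1.44 FPKM and was not called (limma, adjusted p = 0.0606). It was past the threshold without parental replicate 2 (0.0123) and under 3 other scalings (0.0203 to 0.0261). H19, the imprinted neighbour of IGF2, was at 0.255 ± 0.320 and 0.104 ± 0.0967 FPKM and was not called.

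Among the adaptors, IRS2 was the only gene of 7 past the threshold, where 44.4% of all genes tested were called. SHC1, GRB2, GAB1, SH2B1, SH2B2 and IRS4 were not past it. SH2B1 passed without resistant replicate 1 (limma, adjusted p = 0.0342) and under 3 other scalings (0.0386 to 0.0477). Among 10 inhibitors of receptor or pathway signalling, 1 was upregulated and 3 were downregulated, against 22.1% and 22.3% of all genes tested. GRB10, an adaptor that binds and restrains IGF1R and INSR, had 67.6, 73.2 and 78.0 FPKM in parental and 22.2, 23.6 and 20.3 FPKM in resistant libraries (limma, log2 fold change −1.72, standard error 0.09, adjusted p = 4.44e-05). SOCS2, a suppressor of growth hormone and cytokine signalling, had 19.9, 17.5 and 16.2 FPKM in parental and 0.472, 0.517 and 0.232 FPKM in resistant libraries, a log2 fold change of −5.19 (limma, standard error 0.28, adjusted p = 4.51e-05). Both were low in each resistant library, and SOCS2 had the largest decrease of the list. PHLPP1, a phosphatase of AKT, was lower with a log2 fold change of −0.61 (limma, adjusted p = 0.0194), which was lost without resistant replicate 1 (0.0682) or resistant replicate 2 (0.0710). SOCS3 rose from 0.0242 ± 0.0218 to 0.430 ± 0.229 FPKM (SD, n = 3 each, limma, adjusted p = 0.0202). It passed the filter through the resistant libraries alone, so that its direction was fixed in advance and the call adds nothing to the values.

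In the PI3 kinase group, 4 of 9 tested genes were downregulated and none was upregulated, while 44.4% of all genes were called and 22.3% were downregulated. PIK3CD, the p110 delta catalytic subunit, had 23.6, 20.8 and 25.4 FPKM in parental and 1.01, 0.697 and 1.14 FPKM in resistant libraries, a log2 fold change of −4.50 (limma, standard error 0.21, adjusted p = 2.61e-05). PIK3CB, the p110 beta subunit, had 63.9, 64.1 and 60.7 FPKM in parental and 24.1, 20.4 and 24.6 FPKM in resistant libraries (limma, log2 fold change −1.45, adjusted p = 8.82e-05). PIK3CD and PIK3CB were thus lower in every resistant library. The catalytic subunit PIK3CA went the other way, with 2.60, 5.87 and 3.04 FPKM in parental and 6.27, 7.09 and 6.80 FPKM in resistant libraries. Its log2 fold change was 0.88 (95% interval from 0.14 to 1.63). The regulatory subunits PIK3R2 and PIK3R3 had log2 fold changes of −1.24 and −0.74. The other five genes tested, PIK3CA, PIK3R1, PDPK1, AKT1 and AKT2, were not past the threshold, with AKT1 at 149 ± 9.62 and 142 ± 13.0 FPKM (SD, n = 3 each). Of these, PIK3CA passed as upregulated without parental replicate 1 (limma, adjusted p = 0.00427), after median-of-ratios scaling (0.0442), with short genes left out of the scaling (0.0407) and with a filter of 1 FPKM (0.0479). PDPK1 passed as downregulated without parental replicate 2 (0.00750) and AKT2 without parental replicate 1 (0.0394).

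In the mTOR branch, 2 of 12 genes were upregulated and 5 were downregulated, against 22.1% and 22.3% of all genes. EIF4EBP1, the repressor of translation that mTOR inactivates, had 212, 199 and 227 FPKM in parental and 93.7, 102 and 85.5 FPKM in resistant libraries, a log2 fold change of −1.18 (limma, standard error 0.09, adjusted p = 1.52e-04). MLST8, a subunit of both mTOR complexes, had a log2 fold change of −0.49 (adjusted p = 0.00335 in the limma fit). The other calls were small and were each lost in some settings. For RHEB, the GTPase that activates mTOR, the log2 fold change was 0.48, and its adjusted p lay between 0.0844 and 0.0911 with any library but parental replicate 2 left out. RICTOR had a log2 fold change of 0.62 and adjusted p values between 0.107 and 0.133 without parental replicate 0 or 1 or resistant replicate 1 or 2. MTOR had −0.40 and was lost without parental replicate 0 or 2 or resistant replicate 0 or 1 (0.0559 to 0.0690). AKT1S1 had −0.47 and was lost without parental replicate 0 or 1 or resistant replicate 1 or 2 (0.0659 to 0.0744), and RPS6KB2 had −0.33 and was lost with any library but parental replicate 1 left out (0.0636 to 0.129). Both were also lost after median-of-ratios scaling and after quantile normalization, and all 5 without the variance trend. Among the FOXO and GSK3 genes, GSK3A rose from 7.22 ± 1.02 to 16.8 ± 0.547 FPKM and FOXO3 fell from 8.72 ± 1.23 to 4.75 ± 0.701 FPKM (SD, n = 3 each, limma, adjusted p = 6.57e-04 and 0.00753). FOXO1, FOXO4 and GSK3B were not called.

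**Figure D3:**
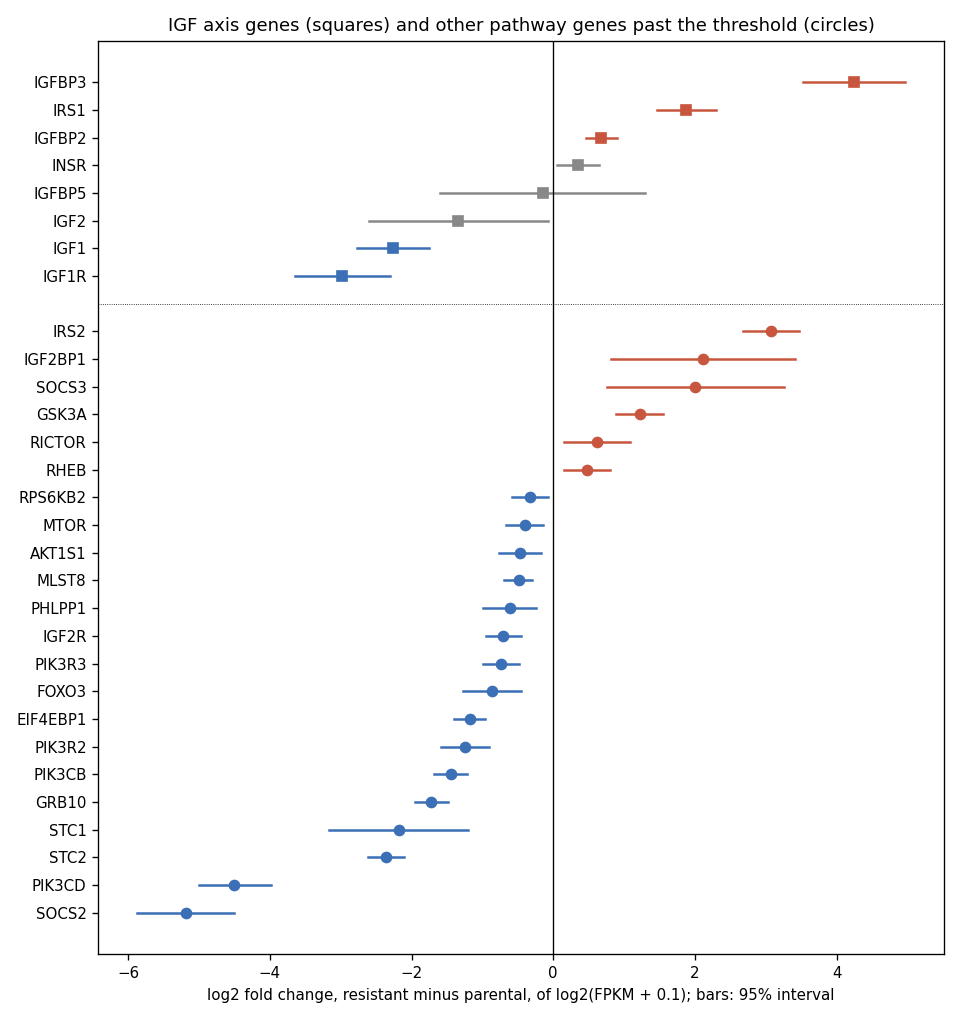
Log2 fold changes of log2(FPKM + 0.1), resistant minus parental, with 95% intervals, for the IGF axis genes with a fold (squares) and the other pathway genes past the threshold (circles). Red marks genes called as upregulated, blue genes called as downregulated and grey genes not past the threshold. IGFBP3 at 4.25 and IGF1R at −2.98 are the outermost squares, and SOCS2 at −5.19 and IRS2 at 3.08 the outermost circles. IGFBP6 is left out, since its parental values were listed at 0.

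The surroundings of the changed genes in the genome were described next, over tested genes within 1000 kb. Around IGF1R, 14 genes were tested, of which 2 were upregulated and 4 downregulated, a share near the 44.4% called over all genes, and the median log2 fold change of those not at 0 in a group was −0.40. The lncRNAs RP11-35O15.2, which overlaps IGF1R on the same strand, and RP11-35O15.1, which lies 1150 bases before it, had log2 fold changes of −4.15 and −2.65 and were called. LINC00923, a lncRNA far upstream, had the largest fold in this window and rose from a mean of 0.0510 to 13.8 FPKM, with 6.63 on the log2 scale (limma, adjusted p = 1.03e-04). It passed the filter through the resistant libraries alone. MIR4714, a microRNA gene that overlaps IGF1R, had means of 58.4 and 17.8 FPKM and was not called (adjusted p = 0.465). Reads of RP11-35O15.2 and of the IGF1R transcript may not be separable. The protein-coding neighbours TTC23 and LRRC28 were not called, with −0.16 and −0.30, and SYNM was upregulated with 0.72, while MEF2A and LYSMD4, farther away, were downregulated with −0.97 and −1.04. The decrease of IGF1R thus exceeded that of every protein-coding neighbour in this window.

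Around IGFBP3, 8 genes were tested, with 2 upregulated, 1 downregulated and a median of 0.36, where 44.4% of all genes were called. IGFBP1, which lies 18585 bases away on chromosome 7, was at 0.0409 ± 0.0399 and 0.160 ± 0.0828 FPKM (SD, n = 3 each) and was not called (limma, adjusted p = 0.217), and ADCY1 was downregulated with −2.51. IGFBP2 and IGFBP5 are likewise neighbours, 7669 bases apart on chromosome 2, and IGFBP2 was at least at 123 FPKM in every library while IGFBP5 did not exceed 0.587 FPKM. Neighbouring binding protein genes were therefore expressed at very different levels. Around IRS1, 7 of 9 tested genes were upregulated and none was downregulated, with a median log2 fold change of 1.80 among the 7 not at 0 in a group, against 22.1% upregulated over all genes. These included RHBDD1 with 0.63, MFF with 0.37, AGFG1 with 0.30, and the collagen genes COL4A4 and COL4A3, with 2.60 and 3.56. COL4A4, COL4A3 and TM4SF20 had parental means of 0.0245, 0.0787 and 0 FPKM. They passed the filter through the resistant libraries alone, so that their direction was fixed in advance. The median was the value of the lncRNA RP11-395N3.2, with means of 0.155 and 0.686 FPKM. The count around IRS1 therefore says little about the region as a whole. Around IGF1, 7 of 18 tested genes were upregulated and 5 downregulated, against 22.1% and 22.3% of all genes. These included HELLPAR, a lncRNA on the opposite strand that overlaps IGF1, with −1.42, and the overlapping RP11-210L7.3, which had a mean of 0.757 FPKM in parental libraries and was listed at 0 in resistant ones. The protein-coding gene DRAM1 had −2.41, beside −2.26 for IGF1. RP11-210L7.3 passed the filter through the parental libraries alone. RPS27P23, called upward from a listed 0, passed through the resistant libraries alone. The direction of both was therefore fixed in advance. The kits named for these libraries include a stranded one, but the counting by strand is not stated, so that reads of IGF1, HELLPAR and RP11-210L7.3 may not be told apart.

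**Figure D4:**
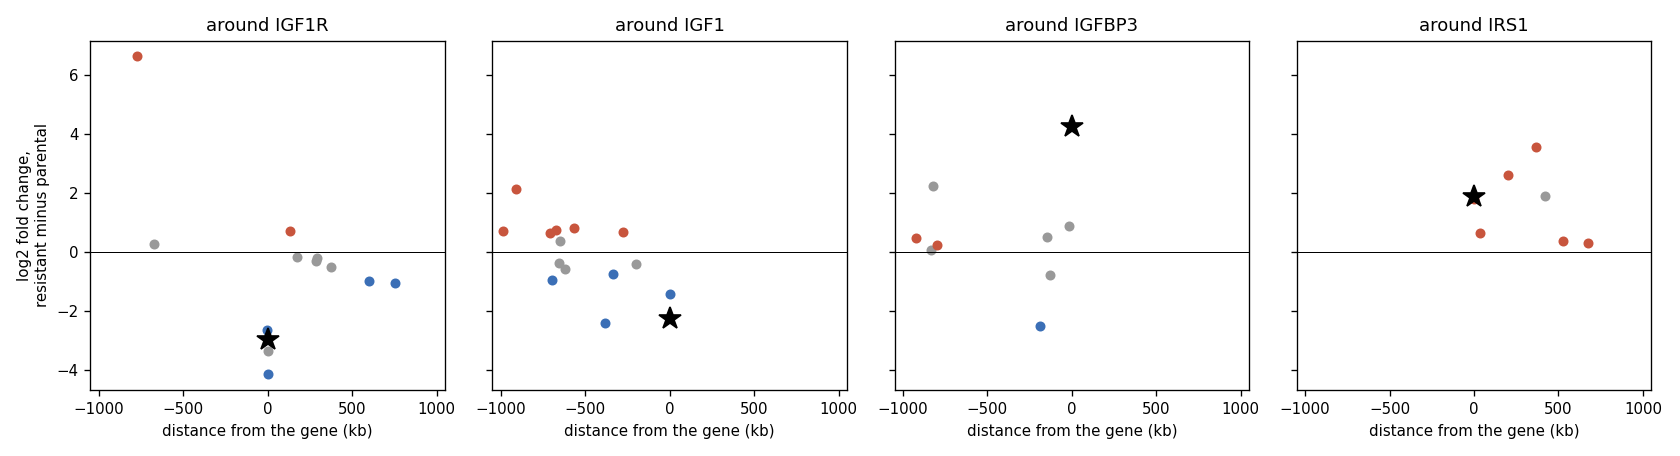
Log2 fold changes (resistant minus parental) of tested genes against their distance in kb along the chromosome from IGF1R, IGF1, IGFBP3 and IRS1, which are drawn as stars. Red, blue and grey points are genes called as upregulated, called as downregulated and not called, and genes at 0 in all libraries of a group are left out. IGF1R at −2.98 and IGFBP3 at 4.25 stand apart from their protein-coding neighbours, while the points around IRS1 all lie above 0. Among the points around IRS1, COL4A4 and COL4A3 passed the filter on low values through the resistant libraries alone.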

How the data were processed

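Expression was measured by RNA-Seq (50 bp, single-end) in 3 parental and 3 enzalutamide resistant libraries of C4-2B. The authors used TrimGalore 0.4.3 for trimming, STAR 2.5.3 for alignment (GRCh38, GENCODE v25) and Cufflinks 2.2.1 for the deposited FPKM values. The submitters' processing notes also list Trimmomatic 0.27, FastQC 0.10.1 and mm10, while the gene identifiers are human. The table names no unit, and how the libraries were scaled against each other is not stated. Positions and exonic lengths were taken from GENCODE v44, which matched 98.2% of the identifiers.

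Values were compared as log2(FPKM + 0.1) with limma 3.58.1 in R 4.3.3 (lmFit, eBayes with a mean-variance trend) over 24468 genes whose mean reached 0.1 FPKM. Tests were two-sided, with Benjamini-Hochberg adjustment over all of these genes. The fit was also run on simulated data with far fewer changed genes than were called here, and that run is not used as support for the calls. An exact permutation test of 3 against 3 libraries cannot go below p = 0.1. Python 3.11.15 (pandas 2.3.3, numpy 2.4.6) served for all other steps.

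The 10 genes and the lists were chosen with earlier results of these data known. Named were the 10 genes, and in each role of the pathway list up to 2 called genes with the smallest adjusted p in each direction, all genes of the ligand, receptor, binding protein and cleavage roles, KLK3, genes that overlap a member, and the 3 profiles closest to that of the gene with the smallest adjusted p. Some marker genes are not reported here, and the marker sums leave them out. Further genes, among them the neighbours, were named after their values were seen. PIK3R3 is on 2 rows, and the row whose identifier carries the symbol was used. Alternatives covered the pseudocount, the filter, the scaling, the variance trend, a replicate block, the threshold and each library left out.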

Additional observations from a re-analysis of the deposited data

How the results depend on the processing

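The calls of IGF1R, IGF1, IGFBP2, IGFBP3 and IRS1 and their directions were kept under every alternative that tested them. IGFBP6 also kept its call. It passed the filter through the resistant libraries alone, so that its direction was fixed in advance and the kept call adds nothing to its values. With each library left out, the log2 fold changes ranged from −3.24 to −2.76 for IGF1R, −2.46 to −2.12 for IGF1, 0.59 to 0.73 for IGFBP2, 4.04 to 4.59 for IGFBP3 and 1.73 to 2.00 for IRS1, and the adjusted p of IGFBP6 from 0.00293 to 0.0172. INSR ranged from 0.27 to 0.43, IGF2 from −1.68 to −1.03, IGFBP4, which has no test, from −0.19 to 0.72 and IGFBP5 from −0.57 to 0.36. IGFBP5 turned positive without parental replicate 1 (0.36) and without resistant replicate 1 (0.09). INSR was gained as a call at 0.46 after median-of-ratios scaling, 0.39 after quantile normalization and 0.43 with short genes left out, and IGF2 at −3.44 with a pseudocount of 0.01 FPKM, −1.60 after quantile normalization and −1.34 without the variance trend. With a filter of 1 FPKM, IGF2, IGFBP4, IGFBP5 and IGFBP6 gave no value. The causes of these changes were not tested.

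The number of genes called, 10868 as reported, lay between 9324 and 10152 with each library left out and between 7253 and 11189 under the other alternatives. The 6 calls among the IGF axis genes became 6 to 7 and 5 to 8. The 22 calls of the pathway list became 16 to 24 with each library left out, and 14 at an adjusted p below 0.01, where fewer genes pass by construction. With any library left out, 7 of these 22 genes lost the call in at least 1 case, and 10 genes not called before were gained.

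The replicate numbers showed no sign of pairing the samples, although 3 libraries per group cannot exclude a pairing. Deviations of same-numbered libraries from their group means had correlations of 0.008, 0.017 and −0.003, and not every library correlated best with its own number. With the replicate block, 9463 genes were called, the calls among the 10 genes stayed at 6, and those of the pathway list went to 20. Median-of-ratios scaling gave a median log2 fold change of 0.04 over all genes, against −0.05 without it. By the approximate depth, no library held more than 30.3 reads of IGF2, 8.64 of IGFBP4 or 18.7 of IGFBP6, and IGFBP5 had between 11.3 and 71.7 reads with a wide spread between libraries.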
